A study of Caenorhabditis elegans with 8 samples.

Results

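The muscle integrin adhesion and dense body genes examined here are *pat-2*, *pat-3*, *pat-4*, *pat-6*, *unc-97*, *unc-112*, *deb-1*, *unc-95* and *unc-98*. These 9 genes were listed by name from their known place at the attachment of body wall muscle, and for each the RefSeq transcript with the highest mean raw count was kept out of the 50606 transcripts counted. Of the 9 genes, 8 had reads and entered the test of 14328 transcripts, and *deb-1* had 0 counts in every library. The RNA came from whole *C. elegans* embryos, so reads of a gene cannot be assigned to muscle, and fewer cells of a type and less RNA per cell cannot be told apart. The 4 *ztf-11* KD libraries came from embryos of mothers grown for 64 hr at 20°C on bacteria with 1 mM IPTG that expressed dsRNA against *ztf-11*, a zinc-finger gene of the Myt1 family. The 4 control libraries came from embryos of mothers fed with bacteria carrying the empty vector L4440, for the same time and at the same temperature and IPTG concentration. All 8 libraries, from independent cultures, share the strain TV23837, with the genotype *ztf-11(wy1100)*; *eri-1(mg366)*; *oxIs322*; *ynIs49*. In this strain ZTF-11 carries GFP at a floxed locus and the *eri-1(mg366)* mutation makes the animals hypersensitive to RNAi. The embryos were around gastrulation, 3 hr after they had been freed from their mothers.

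Body wall muscle of the worm is anchored to the basement membrane through integrin, a heterodimer of an alpha and a beta chain that spans the cell membrane. On the cytoplasmic side a group of conserved proteins gathers on the integrin tail, and from there dense bodies hold the actin thin filaments and M-lines hold the myosin thick filaments. Worms that lack many of these proteins assemble no working sarcomeres and stop elongating as paralysed embryos, the Pat phenotype after which several of the genes are named.

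Library totals lay between 39343105 and 44933700 counts in *ztf-11* KD and between 39494873 and 45609675 in control libraries. Levels are given as CPM, the counts relative to a library size scaled with TMM in edgeR. The threshold was a Benjamini-Hochberg adjusted p of 0.1 in the quasi-likelihood test of edgeR. The study set the same false discovery rate but applied it in another test, that of DESeq2. *ztf-11* itself stood at 9.42 to 14.7 CPM in *ztf-11* KD and 31.2 to 68.4 CPM in control libraries, with no overlap. No transcript passed the threshold (percent called: 0%), and 1832 of 14328 (12.8%) had an unadjusted p under 0.05. *ztf-11* did not pass either, although its p was the smallest of all (log2 fold change -1.97, edgeR adjusted p = 0.262). A gene that missed the threshold in this test can therefore not be taken as unchanged. DESeq2, the tool used in the study, called 435 of 16501 (2.64%), none of them an adhesion gene. Control replicate 2 stood apart from the others in markers of several cell types: 13 of 16 maternal transcripts were tested, and together they reached 1431 CPM there, against 432 to 739.5 CPM in *ztf-11* KD and 556 to 695 CPM in the other control libraries. Of 6 pharyngeal markers 5 were tested, with summed levels of 614 to 2089 CPM in *ztf-11* KD and 269 to 961 CPM in control libraries, the lowest again in control replicate 2, and 4 of the 5 had an unadjusted p under 0.05, all higher in *ztf-11* KD embryos. The muscle identity factor *unc-120* had 152 ± 27.5 CPM in *ztf-11* KD and 163 ± 28.8 CPM in control embryos (SD, n = 4 each). *hnd-1*, another such factor, had 18.8 to 33.3 CPM in *ztf-11* KD libraries, against 65.1 CPM in control replicate 2 and 19.1 to 28.2 CPM in the other controls, which all lay within the *ztf-11* KD range. *hlh-1*, which has several transcripts, had too few reads to be tested.

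None of the 8 measured adhesion genes passed the threshold, and 7 of them had 95% intervals that included no change. The log2 fold changes (*ztf-11* KD over control) ran from 0.018 for *pat-3* to 0.41 for *unc-98*, with a median of 0.069 beside a median of -0.0088 over all transcripts tested. All 8 were above 0, where 49.2% of all transcripts were, but only 7 were with DESeq2's size factors, in DESeq2 and without control replicate 1, 5 without *ztf-11* KD replicate 3 and 4 without control replicate 3. Without control replicate 3 the median was 0.0031. Of the 8 genes, 1, *unc-98*, had an unadjusted p under 0.05 with a higher level in *ztf-11* KD embryos, as 8.8% of all transcripts did, and 0 with a lower level, as 3.99% did. *unc-98* was also the 1 gene of 8 with *ztf-11* KD libraries that all lay above the controls. Over all transcripts 6.07% had libraries that did not overlap, 3.61% with *ztf-11* KD above and 2.46% with *ztf-11* KD below the controls, and none of the 8 genes was of the second kind.

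**Figure D1:**
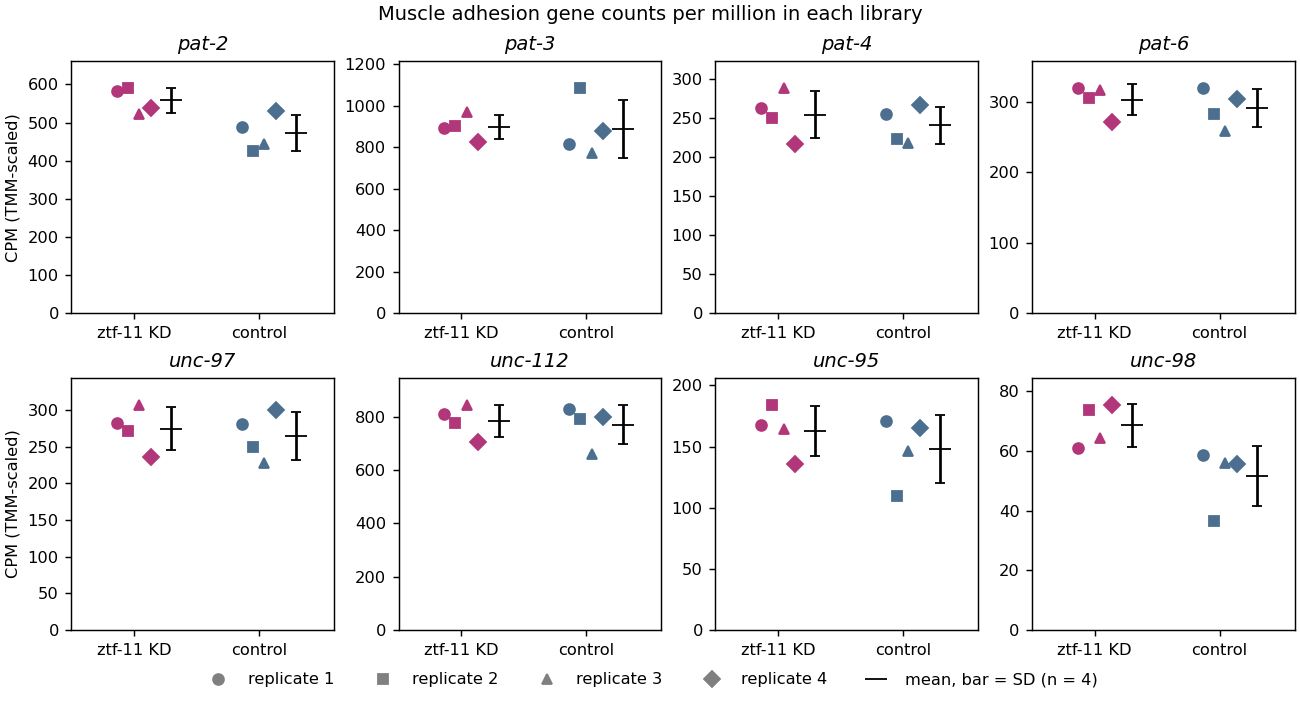
CPM (TMM-scaled, y axis from 0) of the 8 measured genes in each of the 4 *ztf-11* KD libraries (left of each panel) and the 4 control libraries (right). Symbols mark replicate numbers, and the black line and bar give the mean and SD. The conditions overlap in every panel but that of *unc-98*, where the *ztf-11* KD libraries lie between 60.8 and 75.4 CPM and the highest control library is at 58.5 CPM.

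*pat-2* encodes the alpha chain of muscle integrin. In replicates 1 to 4 it reached 582, 590, 522 and 538 CPM with *ztf-11* KD and 489, 424, 444 and 529 CPM with the control. All *ztf-11* KD libraries but replicate 3 lay above all controls, and control replicate 4 reached above *ztf-11* KD replicate 3. The means were 558 ± 33.3 and 472 ± 47.0 CPM in *ztf-11* KD and control embryos (SD, n = 4 each). On the log2 scale the fold change was 0.24 (standard error 0.11, 95% interval -0.00037 to 0.48, edgeR adjusted p = 0.392). An exact permutation test over the 70 assignments of the libraries gave a two-sided p of 0.057.

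*pat-3* encodes the beta chain, which pairs with PAT-2 in muscle and with INA-1 in other tissues. It had 895, 905, 971 and 827 CPM in the *ztf-11* KD libraries and 816, 1086, 774 and 877 CPM in the controls. Both the highest and the lowest of the 8 values were controls, replicates 2 and 3, so that the control range enclosed all *ztf-11* KD libraries. The log2 fold change was 0.018 (standard error 0.13, 95% interval -0.26 to 0.30), and the interval holds changes from 0.833-fold to 1.23-fold. Its sign was not stable: it was -0.0049 when libraries were scaled by DESeq2's size factors and -0.0060 in DESeq2.

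Per kb of exon, with exon lengths from the Ensembl annotation of assembly WBcel235, *pat-3* averaged 316 ± 20.7 CPM per kb in *ztf-11* KD and 312 ± 48.6 CPM per kb in control embryos (SD, n = 4 each). *pat-2* averaged 141 ± 8.38 and 119 ± 11.8 CPM per kb, and *ina-1*, the gene of the other alpha chain, 135 ± 9.44 and 125 ± 20.2 CPM per kb, in *ztf-11* KD and control embryos. The alpha chains together thus reached 0.875 ± 0.0366 times the level of *pat-3* in *ztf-11* KD embryos and 0.788 ± 0.0746 times in controls (exact permutation test, two-sided, p = 0.086). Of the alpha-chain level *pat-2* made up 52.6%, 53.0%, 46.8% and 51.4% in *ztf-11* KD replicates 1 to 4 and 51.6%, 41.2%, 51.5% and 51.5% in control replicates 1 to 4. The share was lowest in control replicate 2 and next lowest in *ztf-11* KD replicate 3, and near an even split in the other 6 libraries. The conditions differed in this share by 2.0 percentage points, within the spread between libraries (exact permutation test, two-sided, p = 0.543). *pat-2* and *ina-1* each overlap a protein-coding gene on the opposite strand in that annotation (F54F2.9 and *dgk-3*), and the strand setting of the counting is not given in the sources used here.

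The next 4 genes encode the proteins that assemble on the integrin tail. UNC-112, the kindlin, binds the tail of PAT-3 and recruits PAT-4, the integrin-linked kinase homolog. PAT-4 in turn binds PAT-6, the parvin, and UNC-97, the PINCH protein made of LIM domains. For *unc-112*, replicates 1 to 4 gave 811, 778, 845 and 705 CPM with *ztf-11* KD and 828, 793, 662 and 801 CPM with the control. Its lowest library was control replicate 3 and its highest *ztf-11* KD replicate 3, and the ranges overlapped over most of their length. The log2 fold change was 0.026 (standard error 0.11, 95% interval -0.22 to 0.27).

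For *pat-4* they gave 263, 249, 288 and 216 CPM with *ztf-11* KD and 255, 223, 218 and 266 CPM with the control. Here both the lowest and the highest library were *ztf-11* KD ones, replicates 4 and 3. This gave a log2 fold change of 0.079 (standard error 0.12, 95% interval -0.20 to 0.36).

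*pat-6* had 319.5, 305, 317 and 272 CPM in *ztf-11* KD and 319.6, 283, 259 and 305 CPM in control replicates 1 to 4. Its highest value was a control, replicate 1, close to *ztf-11* KD replicate 1, and all 8 libraries lay within 1.24-fold of each other, the narrowest range of the 8 genes. The log2 fold change was 0.058 (standard error 0.11, 95% interval -0.19 to 0.31).

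*unc-97* had 283, 271, 307 and 237 CPM in *ztf-11* KD and 282, 249.8, 228 and 300.4 CPM in control replicates 1 to 4. Its extremes were the same libraries as those of *unc-112*. Its fold change was 0.052 on the log2 scale (standard error 0.13, 95% interval -0.24 to 0.34). For these 4 genes the 95% intervals lay between 0.849 and 1.28 times the control level.

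**Figure D2:**
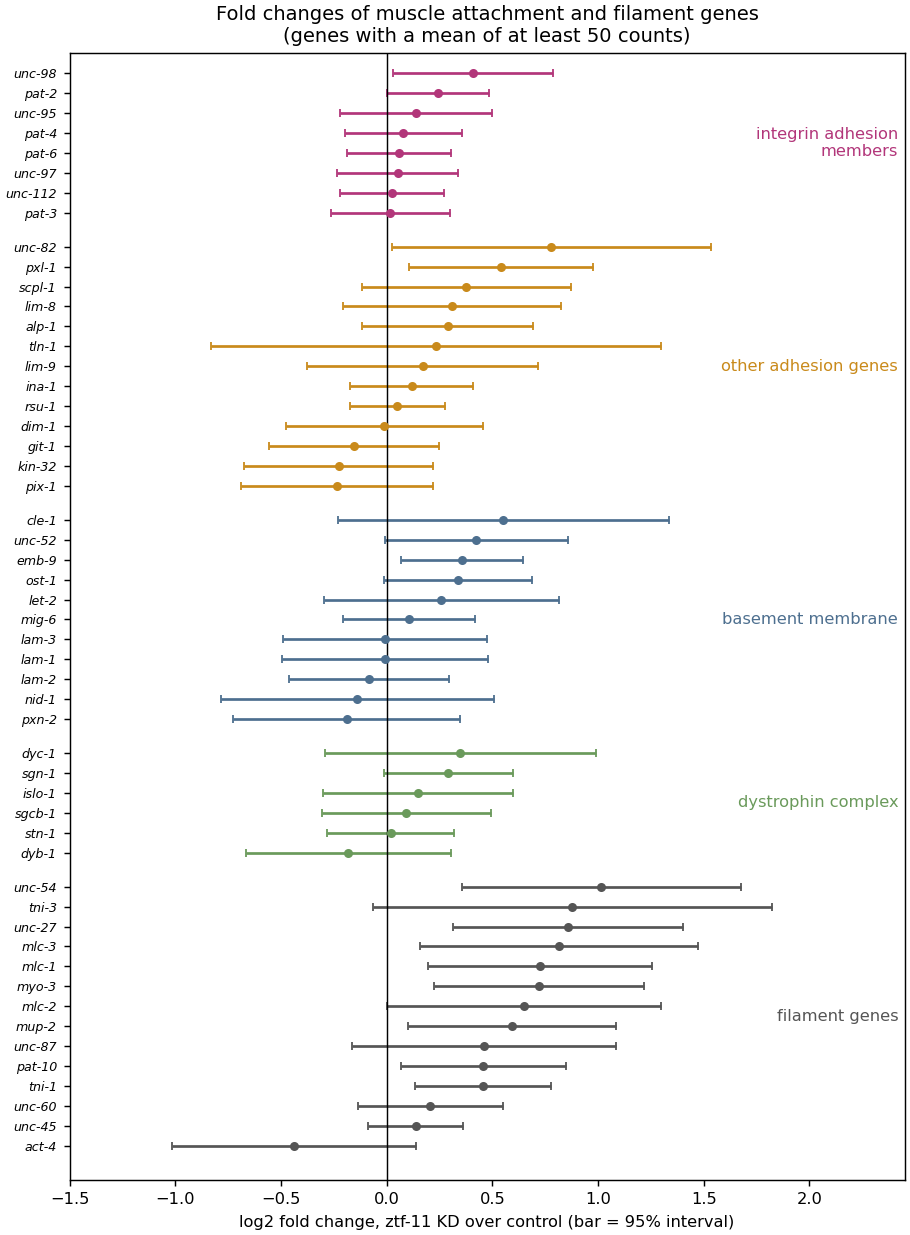
Log2 fold changes, *ztf-11* KD over control, from edgeR's quasi-likelihood fit with 95% intervals (x axis). Shown are the 8 measured genes and 4 lists of other adhesion, basement membrane, dystrophin complex and filament genes, each with a mean of at least 50 counts. The intervals include 0 for 7 of the 8 genes, all but *unc-98*, and the filament genes at the bottom include values up to 1.02 for *unc-54*.

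The remaining genes act where the filaments are held. DEB-1, the vinculin of the dense body, links the integrin complex to actin. All 6 of its transcripts in the count files had 0 reads in all 8 libraries, so nothing can be said of its level or its change. A count of 0 was common for genes with several transcripts: it was found for 82 of 156 genes with 6 or more transcripts (52.6%), for 292 of 830 with 3 to 5 (35.2%), for 651 of 2173 with 2 (30.0%) and for 1464 of 14746 with 1 (9.93%). Each of the 8 measured genes has 1 transcript in the files. The rule for reads that overlap several transcripts is not given in the sources used here, and its part in these zeros was not tested.

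**Figure D3:**
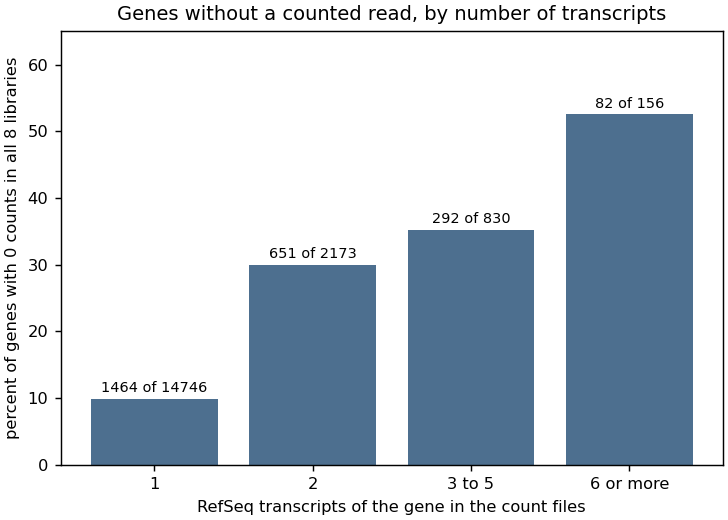
Percent of genes with 0 counts summed over the 8 libraries (y axis), by the number of NM transcripts of the gene in the count files (x axis), with the number of genes above each bar. The percentage runs from 9.93% for genes with 1 transcript to 52.6% for genes with 6 or more, the class of *deb-1*.

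UNC-95 is a LIM protein of dense bodies and M-lines. Its gene reached 168, 184, 164 and 135 CPM with *ztf-11* KD and 171, 109.8, 146 and 166 CPM with the control in replicates 1 to 4. Control replicate 2 was the lowest library and *ztf-11* KD replicate 2 the highest, 1.68 times apart. The log2 fold change was 0.14 (standard error 0.16, 95% interval -0.22 to 0.50), and without control replicate 2 it was 0.0018.

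UNC-98 is a zinc-finger protein of M-lines that binds UNC-97 and the thick filament. *unc-98* was at 60.8, 73.6, 64.2 and 75.4 CPM in *ztf-11* KD and at 58.5, 36.4, 55.7 and 55.6 CPM in control replicates 1 to 4. Every *ztf-11* KD library lay above every control, with a gap of 60.8 against 58.5 CPM between the nearest libraries, and control replicate 2 lay far below the other controls. The means were 68.5 ± 7.1 CPM in *ztf-11* KD and 51.6 ± 10.2 CPM in control embryos (SD, n = 4 each). This is a 1.33-fold difference, or 0.41 on the log2 scale (standard error 0.17, 95% interval 0.031 to 0.79). The exact permutation test gave a two-sided p of 0.029, the smallest that 4 libraries against 4 allow, and edgeR's adjusted p was 0.387, so *unc-98* did not pass the threshold. Without control replicate 2 the log2 fold change was 0.26 (unadjusted p = 0.052 in edgeR), and the unadjusted p was 0.090 without *ztf-11* KD replicate 2, 0.10 without *ztf-11* KD replicate 4 and 0.057 without control replicate 3. Scaling by library totals alone gave 0.39 (unadjusted p = 0.067), DESeq2 0.39 (0.061) and a fit with the replicate number as a block 0.43 (0.077). *unc-98* overlaps the protein-coding genes *pcyt-1*, on the opposite strand, and F08C6.18, on the same strand, in the WBcel235 annotation. There *unc-112* overlaps *gasr-8* on the opposite strand and *unc-95* the non-coding gene Y105E8A.37, while *pat-3*, *pat-4*, *pat-6* and *unc-97* overlap no other gene.

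Levels between the genes were compared per kb of exon. In *ztf-11* KD embryos *pat-3* and *unc-112* stood highest, both at 316 CPM per kb, followed by *pat-6* at 241, *unc-97* at 179.8, *pat-4* at 159, *unc-95* at 142, *pat-2* at 141 and *unc-98* at 55.0 CPM per kb. In control embryos the order of the means was the same, at 312, 310.2, 232, 173, 151, 129, 119 and 41.4 CPM per kb. The ranges over libraries of *pat-3* and *unc-112* overlapped in both conditions, and so did those of *unc-97* with *pat-4*, *pat-4* with *unc-95*, and *unc-95* with *pat-2*. Within every single library, however, *pat-4* lay below *unc-97*. The log2 ratio of their CPM was -0.18 to -0.061, and *pat-4* has the longer exons (1.597 against 1.527 kb). *pat-6* lay apart from its neighbours in both conditions, with 216 to 254 CPM per kb in *ztf-11* KD and 206 to 254 CPM per kb in control libraries, and *unc-98* lay below all others.

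The genes also differed in how much they varied between libraries, whatever the condition. The SD of log2 CPM over all 8 libraries was 0.12 for *pat-6* and *unc-112*, 0.15 for *pat-4* and *pat-3*, 0.16 for *unc-97*, 0.17 for *pat-2*, 0.24 for *unc-95* and 0.33 for *unc-98*, beside a median of 0.43 over all transcripts tested. Counting error alone would give the 8 genes an SD of 0.0074 to 0.029 on this scale. They averaged 2557 to 37910 counts, while the median over all transcripts includes many with far fewer, and transcripts of like count were not compared. The ratios among the 4 genes of the integrin tail complex varied least. Of the 28 pairs among the 8 genes, the 6 pairs within *pat-4*, *pat-6*, *unc-97* and *unc-112* had the most constant ratios, with an SD of the log2 ratio from 0.037 for *pat-4* to *unc-97* to 0.087 for *pat-4* to *unc-112*. The other 22 pairs ranged from 0.13 to 0.43. If *pat-4* and *unc-97*, the pair with the most constant ratio, varied independently, their ratio would have an SD of 0.22. Most of the 28 pairs lay below the SD for independent genes, but some lay above it. Among the latter were *pat-2* to *pat-3* (0.247 against 0.230) and *pat-3* to *unc-98* (0.430 against 0.360). The ratios were computed over the same 8 libraries, in which the genes share library composition, and are given as a description. None of the 28 ratios separated the *ztf-11* KD from the control libraries.

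**Figure D4:**
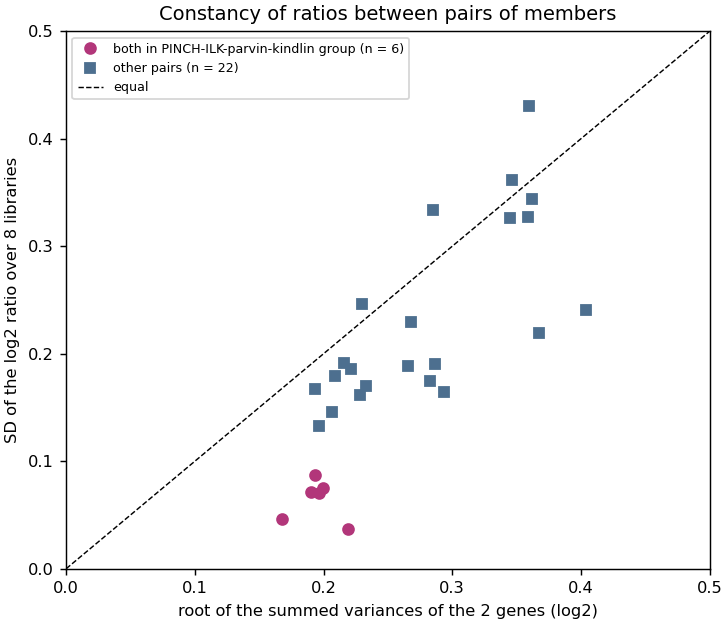
For each of the 28 pairs among the 8 measured genes, the SD over 8 libraries of the log2 ratio of their CPM (y axis) against the SD that the ratio would have if both genes varied independently (x axis). The 6 pairs within *pat-4*, *pat-6*, *unc-97* and *unc-112* (circles) lie lowest, between 0.037 and 0.087, and the dashed line marks equal values.

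Single libraries held the extremes of several genes. Control replicate 2, the library with the highest summed maternal transcripts, held the highest value of *pat-3* and the lowest of *pat-2*, *unc-95* and *unc-98*. Control replicate 3 held the lowest value of *pat-3*, *pat-6*, *unc-97* and *unc-112*, and *ztf-11* KD replicate 3 the highest of *pat-4*, *unc-97* and *unc-112*. In *ztf-11* KD replicate 4 the tail-complex genes lay at -0.13 to -0.18 relative to their means on the log2 scale, while *unc-98* lay at 0.36. The summed maternal transcripts were also lowest in that library, at 432 CPM, and the part of these marker levels in the values of the adhesion genes was not tested. Without control replicate 2 the log2 fold changes of *pat-2* and *pat-3* were 0.18 and 0.11.

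**Figure D5:**
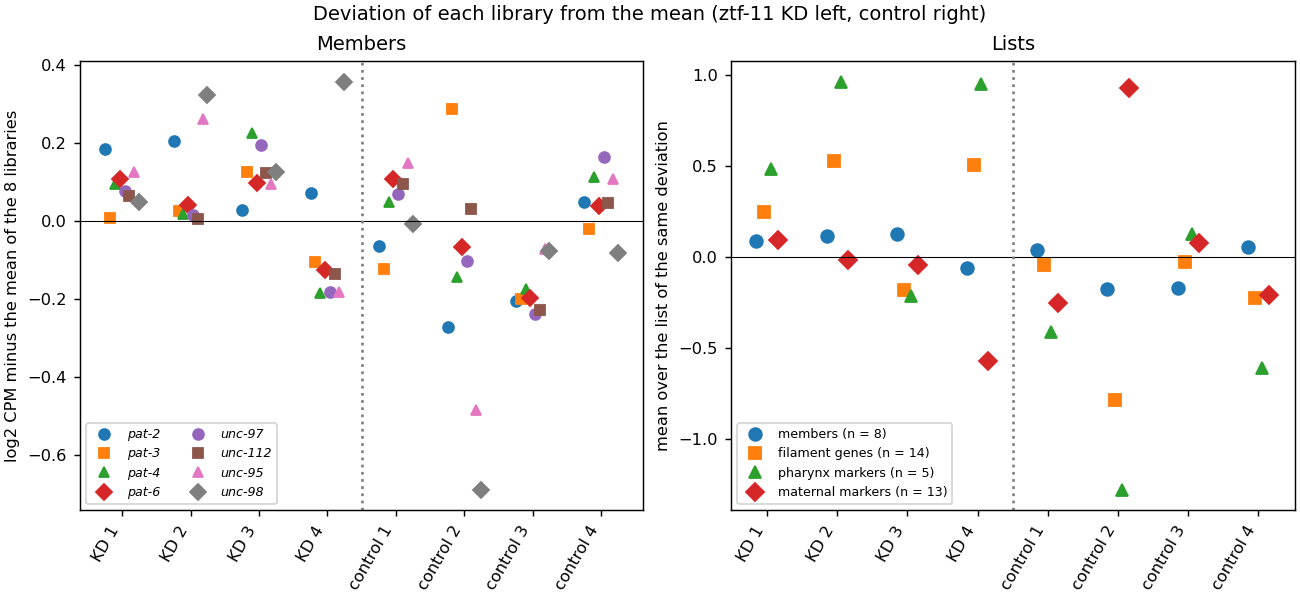
Deviation of log2 CPM from the mean over the 8 libraries, for each measured gene (left) and averaged over lists (right), with the *ztf-11* KD libraries left of the dotted line and the control libraries right of it. In control replicate 2 *pat-3* lies at 0.29 and *unc-98* at -0.69, and the maternal list lies at 0.93 and the filament list at -0.79.

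None of the other genes of muscle attachment tested passed the threshold either. A list of 21 further adhesion genes held genes of dense bodies and M-lines and also *ina-1*, the gene of the other alpha chain. Of the 21, 13 were tested, *ina-1* among them, and 8, all with several transcripts, had too few reads. Among these 8 were the alpha-actinin gene *atn-1*, with 0 counts, and the obscurin gene *unc-89*. Of the 13, 9 had log2 fold changes above 0 and 4 below, with a median of 0.17. Beside 8.8% of all transcripts, 2 of the 13 had an unadjusted p under 0.05 and higher values in *ztf-11* KD embryos. These were the paxillin gene *pxl-1*, at 17.9 ± 3.45 and 12.3 ± 1.32 CPM in *ztf-11* KD and control embryos (log2 fold change 0.54, standard error 0.20), and the kinase gene *unc-82*, at 7.35 ± 1.84 and 4.28 ± 1.56 CPM (0.78, 0.34). The third smallest p was that of *scpl-1*, a phosphatase gene of M-lines (log2 fold change 0.38, standard error 0.22). *rsu-1*, whose product binds UNC-97, averaged 296 ± 12.4 and 286 ± 20.1 CPM in *ztf-11* KD and control embryos (log2 fold change 0.050, standard error 0.10). *tln-1*, the talin gene, was barely counted, with 74.5 counts on average, and its log2 fold change of 0.23 had a standard error of 0.48. *pxl-1*, *unc-82*, *scpl-1* and *tln-1* have 3, 5, 2 and 4 transcripts in the files, and each value is that of the most abundant one. The part of the rule for reads over several transcripts in these values was not tested.

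Of 14 basement membrane genes 11 were tested. None passed, 6 lay above 0 and 5 below, with a median of 0.11, and 1, beside 12.8% of all transcripts, had an unadjusted p under 0.05. This was *emb-9*, a type IV collagen gene, at 302 ± 21.5 CPM in *ztf-11* KD and 236 ± 33.9 CPM in control embryos (SD, n = 4 each). Its libraries did not overlap, and the log2 fold change was 0.36 (standard error 0.13). For *unc-52*, which encodes perlecan of the muscle basement membrane, it was 0.42 (0.19) on the most abundant of its 16 transcripts, and for *ost-1*, the SPARC gene, 0.34 (0.16). Of 9 genes of the dystrophin complex 7 were tested, with none past the threshold, 0 with an unadjusted p under 0.05 and a median of 0.15. The smallest p values there were those of *sgn-1* (log2 fold change 0.29, standard error 0.14), *dyc-1* (0.35, 0.29) and *dyb-1* (-0.18, 0.22). *emb-9* and *dyc-1* each have 2 transcripts in the files, and their values are those of the more abundant one.

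The filament genes that these attachments hold had a higher median log2 fold change than the adhesion genes, a difference that was not tested as such. Of 22 thick and thin filament genes 14 were tested, 13 of them above 0 and 1 below, with a median of 0.62, but none passed the threshold. The other 8 had too few reads or no transcript in the files. Of the 14, 9 had an unadjusted p under 0.05 with a higher level in *ztf-11* KD embryos, as 8.8% of all transcripts did. In 1 of the 14 all *ztf-11* KD libraries lay above the controls, as in 3.61% of all transcripts. In 1 they all lay below, as in 2.46%. Some markers of other tissues had higher values in *ztf-11* KD embryos too. Besides the pharyngeal ones, these were 2 of 6 intestinal markers with an unadjusted p under 0.05, among them the intestinal actin gene *act-5* at 2116 ± 662 CPM in *ztf-11* KD and 973 ± 395 CPM in control embryos (SD, n = 4 each), although the median of the 6 was -0.026. Of these 6 markers 2 lay above 0 and 4 below, and the other one with such a p averaged only 16.5 counts. Of 8 neuronal markers 5 were tested, all above 0, with a median of 0.51 and 0 with an unadjusted p under 0.05. The conditions overlapped for all 5, and the least counted of them averaged 36.8 counts. Of 8 epidermal markers 4 were tested, 1 above 0 and 3 below, with a median of -0.029. Of the 13 maternal transcripts tested 3 lay above 0 and 10 below. The part of these tissues in the filament values was not tested. The log2 fold change was 0.86 (standard error 0.24) for the troponin I gene *unc-27*, 1.02 (0.30) for the myosin heavy chain gene *unc-54* and 0.72 (0.22) for *myo-3*, which encodes another myosin heavy chain. Whether an adhesion gene differed from *myo-3* in its response was tested on the log2 ratio of both in each library. For *unc-112* this ratio was -1.22, -1.65, -0.64 and -1.79 in *ztf-11* KD and -0.67, -0.093, -1.15 and -0.66 in control replicates 1 to 4. *ztf-11* KD replicate 3 lay above 3 of the controls, and the difference of the means was -0.68. Over the 8 adhesion genes the difference ran from -0.28 for *unc-98* to -0.68 for *pat-3* and *unc-112*, and the unadjusted exact permutation p lay between 0.057 and 0.143 (two-sided, 8 ratios), so no adhesion gene could be told from *myo-3* by this test. Relative to *unc-54* the difference ran from -0.55 for *unc-98* to -0.95 for *pat-3* and *unc-112*, with an exact permutation p between 0.057 and 0.143 and libraries that overlapped for all 8 genes. The 8 ratios in each set share their denominator, and *myo-3* and *unc-54* were among the 3 filament genes with the smallest p. *ztf-11* KD replicate 3 had a summed filament level of 7049 CPM, and the other *ztf-11* KD libraries 9859.9 to 12590.2 CPM. Control replicate 2 had 4382 CPM and the other controls 6566 to 7768 CPM. For the 8 adhesion genes the sums were 3006 to 3478 CPM in *ztf-11* KD and 2787 to 3299.7 CPM in control libraries.

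The transcripts most like the adhesion genes over the 8 libraries were sought among 6489 others with a symbol and a mean of at least 10 CPM, by the root mean square difference from the average profile of the 8 genes in mean-centred log2 CPM. The nearest were *vab-19* (difference 0.042), *sos-1* (0.044), *klp-3* (0.054), *phac-1* (0.055) and *vglu-2* (0.057), with log2 fold changes from 0.059 to 0.17. The genes' own differences from that average, of which they are part, ran from 0.060 for *pat-6* to 0.25 for *unc-98*, and 5 of the 8 were under 0.1. Of the 6489 others at most 1.49% lay nearer than any of these 5 genes. For *unc-95*, *pat-3* and *unc-98* the shares that lay nearer were 8.54%, 18.8% and 38.7%. The average itself lay between -0.18 (control replicate 2) and 0.13 (*ztf-11* KD replicate 3), so any transcript that varies little lies near it. As the genes also form part of the average, these shares are a description and do not measure a shared course of the genes.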

How the data were processed

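RNA-seq was measured in 8 libraries, grouped by their titles. The authors trimmed adaptors with fastx, mapped the reads to *ce10* with Tophat2 and ran featureCounts on those that mapped uniquely. They tested differential expression with DESeq2 at a false discovery rate under 0.1. The files as deposited hold raw counts for 50606 RefSeq transcripts, without normalization. The versions, strand setting and rule for reads over several transcripts are not given in the sources used here. Symbols came from a RefSeq gene table of WBcel235, which matched 45715 transcripts, with 87.7% of all counts. No coordinates were used, since the build differs. No library was a copy of another: within a condition, the chi-square of any pair was at least 31.0 per degree of freedom.

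In edgeR 4.0.16 (R 4.3.3), low counts were removed by filterByExpr with a minimum of 10, TMM factors were computed, and a robust glmQLFit with the condition as its only term was tested by glmQLFTest. The standard error of a fold change is its log2 value over the root of F, and intervals use the t quantile of the fit's degrees of freedom. Log2 CPM used a prior count of 2. P values weigh the difference between conditions against the spread between 4 independent cultures per condition. For a single value, all 70 assignments of the libraries were enumerated in an exact two-sided permutation test. The rule for named genes took all the adhesion genes, the 3 transcripts with the smallest p of each other list, and the 5 nearest profiles. Of the marker lists of other tissues only *act-5* is named, and *ina-1*, *rsu-1*, *tln-1*, *atn-1*, *unc-89* and *hlh-1* were named outside the rule, after their values were seen. The genes and lists were chosen with earlier results of these data known. Tried besides were DESeq2 1.42.0, its size factors in edgeR, library totals, other filters, counts summed per gene, a replicate block, an adjusted p under 0.05 and each library left out in turn.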

Additional observations from a re-analysis of the deposited data

Results flagged for a closer look

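Of 16 groups of 4 libraries searched, 1 held a library far from the other 3, and chance gives about 5% of groups. This was control replicate 2 for *unc-98*, with 36.4 CPM. The other controls had 55.6 to 58.5 CPM, so that the gap took up 0.866 of the range. Maternal transcripts summed to 1431 CPM in this library, the highest of the 8, and filament genes to 4382 CPM, the lowest. Their part in the value of *unc-98* was not tested.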

How the results depend on the processing

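None of the 8 genes passed an adjusted p of 0.1 in any fit tried, and none passed 0.05. The number of transcripts past the threshold was 0, but 6 without a filter on low counts and 435 in DESeq2, and 0 to 3 with each library left out (3 without control replicate 2, 2 without control replicate 3). *pat-3* turned to -0.0049 with DESeq2's size factors and -0.0060 in DESeq2. With each library left out the log2 fold changes ranged from -0.056 to 0.11 for *pat-3*, -0.012 to 0.11 for *pat-6*, -0.032 to 0.12 for *unc-97*, -0.057 to 0.067 for *unc-112*, 0.18 to 0.30 for *pat-2*, 0.013 to 0.14 for *pat-4*, 0.0018 to 0.21 for *unc-95* and 0.26 to 0.48 for *unc-98*, with a median over the genes from 0.0031 to 0.13. The lowest values of *pat-3*, *pat-6*, *unc-97* and *unc-112* came without control replicate 3, where 4 of the 8 were above 0, and the cause was not tested. The number of genes with an unadjusted p under 0.05 was 0 with library totals, in DESeq2 and under the block, and 0 to 2 with a library left out. Of all transcripts with an unadjusted p under 0.05, 68.8% were higher in *ztf-11* KD embryos, and 53.2% under library totals. Same-numbered libraries did not deviate together over all transcripts (correlations from -0.64 to 0.0052). Differently numbered ones reached 0.58 (*ztf-11* KD replicate 4 with control replicate 3), so larger differences between libraries could hide a pairing by number, which this cannot exclude. With the replicate block the median over the genes was 0.068, 0 transcripts passed and 708 had an unadjusted p under 0.05. At these depths the spread between cultures limits the precision.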
